A study of Mus musculus with 6 samples.

Results

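The genes described here are 49 components and products of the NF-kB pathway, inflammatory mediators other than chemokines. They were chosen by name, and every probe whose deposited gene symbol is one of the 49 was taken, which gave 80 of the 46621 probes on the array. They were read in mouse embryonic fibroblasts, cultured connective-tissue cells from embryos, on Illumina bead arrays, which measure a transcript by the brightness of a probe that binds it. The groups were Klf4 -/- cells, which carry no intact copy of the gene for the zinc-finger factor Klf4 (called Klf4-null here, 3 samples), and Klf4 +/+ cells (wild type, 3 samples), with 1 array per sample. The labels give the strain C57Bl/6 and an age of 13 days for all 6 samples, and the cells were grown in serum-containing medium with no inflammatory stimulus named. How the Klf4 allele was made, and whether the replicates were separate cultures or embryos, was not given in the sources used here, so p-values reflect the spread among these 6 samples alone, and that spread may be technical. As the RNA came from whole cultures, fewer cells of a type and less RNA per cell cannot be told apart.

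NF-kB factors are dimers of Rel proteins held in the cytoplasm by inhibitors of the I-kappa-B family. In the canonical branch, receptors for TNF, IL-1 and bacterial products act through TRAF and IRAK adaptors on the IKK kinase complex, which marks the inhibitors for destruction and frees Rela and Nfkb1 dimers. In the alternative branch the kinase NIK, encoded by Map3k14, drives the processing of Nfkb2, the partner of Relb. Many inhibitors and adaptors are themselves targets of NF-kB and form feedback loops, and fibroblasts are known to answer such signals with cytokines and matrix proteases.

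Values are the authors' normalized probe intensities, on a linear scale. A background floor was estimated for each array and lay at intensities of 54.0 to 54.2, and probes exceeding it on 3 or more of the 6 arrays were tested. Of all 21823 probes tested, 38.9% were called changed at an adjusted p under 0.05 by limma, and the correlation of arrays across these probes was 0.996 to 0.998 within Klf4-null cells, 0.995 to 0.996 within wild type and 0.947 to 0.951 between the groups. The 3 probes of Klf4 itself went different ways. ILMN_1241903 read 39.7, 46.8 and 43.7 in Klf4-null cells, against 98.7, 95.6 and 103 in wild type, and ILMN_1221264 read 45.4, 43.9 and 41.3 in Klf4-null cells, against 63.2, 66.2 and 77.99 in wild type. Both were above the floor on no Klf4-null array and on all 3 wild-type arrays (log2 fold changes -1.19 and -0.66, adjusted p = 5.3e-08 and 4.8e-05 by limma), whereas the brightest probe, ILMN_2593684, read 702, 707 and 737 in Klf4-null cells, against 403, 494 and 380.1 in wild type (0.76, adjusted p = 2.4e-05). Where these probes lie relative to the disrupted sequence is not known from the labels. All 10 fibroblast markers were above the floor and tested, with a summed intensity of 54703 to 57856 in Klf4-null and 44708 to 47994 in wild-type cells. They were not alike: 3 were higher in Klf4-null cells (Col3a1 5.65-fold, Col1a1 2.10-fold and P4hb 1.39-fold), 2 were lower (Pdgfra 1.80-fold and Col1a2 1.26-fold) and 5 did not pass, among them Vim. The part of these markers in the members' values was not tested.

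In Klf4-null cells, transcripts of the alternative Rel factors Nfkb2 and Relb, of the inhibitors Nfkbia, Nfkbib and Nfkbie, and of the lipopolysaccharide co-receptor Cd14 were 1.85-fold to 2.82-fold higher than in wild type, and the adaptor Traf1 was at least 3.03-fold higher. The secreted pattern-recognition protein Ptx3 was 2.66-fold lower and the decoy receptor Tnfrsf11b at least 1.96-fold lower. The genes of the IKK complex and the related kinase Ikbke did not pass the test on their representing probes, and the classical inducing cytokines Tnf, Il1a and Il1b were above the floor on no array of either genotype. Where a gene had several tested probes, the brightest on average stands for it, and folds are ratios of geometric means. Of the 49 genes, 17 were higher in Klf4-null cells, 4 were lower, 17 did not pass and 11 had no probe that could be tested. The share called was 39.9% over all 16213 genes tested, 19.3% higher and 20.6% lower. Changes of at least 1.5-fold were called for 9 members upward and 2 downward, against 8.14% and 7.83% of all genes. Changes of at least 2-fold were called for 5 members upward (Traf1, Nfkbie, Cd14, Relb and Nfkb2) and 2 downward (Ptx3 and Tnfrsf11b), against 3.87% and 3.27% of all genes. The arrays of the groups did not overlap for 25 of the 38 members tested, against 48.3% of all genes.

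The filter decides who is counted, because a probe dim in 1 group is tested only if it is bright in the other. Traf1 and Tnfrsf11b entered the test in that way. With no filter, 16 of the 49 members were higher and 5 lower, which is 32.7% and 10.2%, against 9.55% and 10.0% of 32293 genes, of which 19.6% were called. The further fall was that of Lbp (adjusted p = 0.0227 by limma), which was above the floor on no array. Over the 35 members above the floor on all 6 arrays, 15 were higher and 3 lower, or 42.9% and 8.57%, against 19.4% and 22.5% of 13008 genes, of which 41.9% were called. The median log2 fold change (Klf4-null minus wild type) was 0.26 over the 38 tested members and 0.075 over all 49 with no filter, where that of all genes was -0.03 and -0.01. Without wild-type replicate 2 the median of the 38 was 0.156. The medians and counts are descriptions of a list chosen with results of these arrays known.

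**Figure D1:**
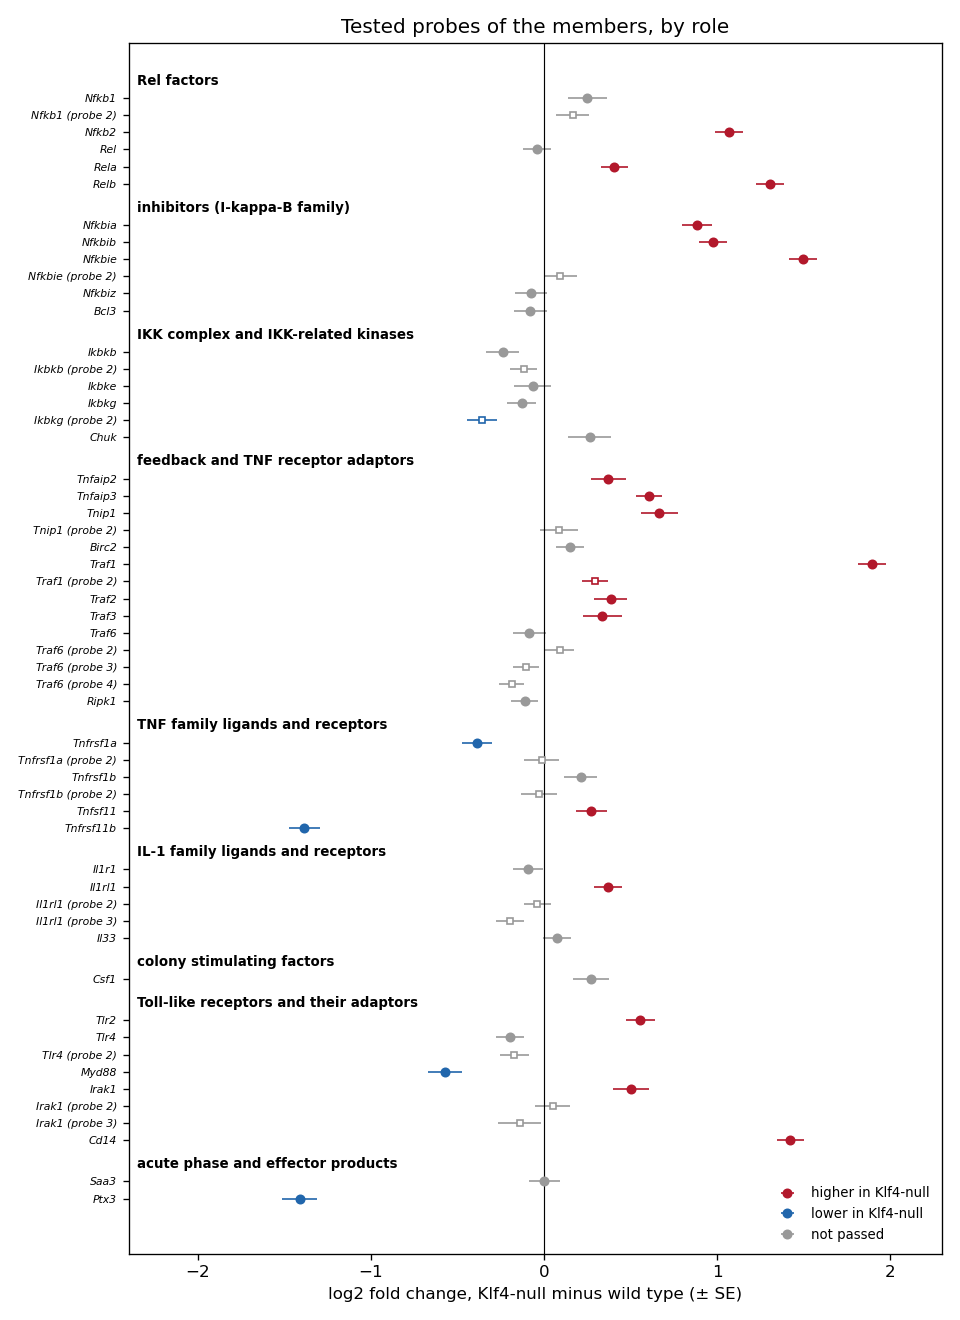
Log2 fold change (x axis, Klf4-null minus wild type, bars are the SE, 3 arrays per group) of the 54 tested member probes, grouped by role, with filled circles for the probe that represents a gene and open squares for its other probes. The points above 1 are Traf1, Nfkbie, Cd14, Relb and Nfkb2, those under -1 are Ptx3 and Tnfrsf11b, and the representing probes of the IKK genes lie between -0.24 and 0.26.

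Of the 5 Rel factors, Nfkb2, Relb and Rela rose. Nfkb2, whose p100 precursor both partners and restrains Relb, had intensities of 538, 580 and 553 in Klf4-null cells, against 288, 255 and 254 in wild type. Relb, the partner of processed Nfkb2, had 231, 218 and 210 in Klf4-null cells, against 87.7, 84.4 and 94.4 in wild type. For both genes every Klf4-null array was above every wild-type array. Nfkb2 rose 2.10-fold (log2 change 1.07, SE 0.08, adjusted p = 1.3e-07 by limma) and Relb 2.47-fold (1.31, SE 0.08, adjusted p = 1.4e-08). Rela, the transactivating subunit of the canonical branch, read 1939, 1969 and 1879 in Klf4-null cells and 1549, 1456 and 1368 in wild type. Its groups did not overlap either, with a smaller rise of 1.32-fold (log2 change 0.41, SE 0.08, adjusted p = 9.0e-04).

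The remaining Rel genes did not pass. Nfkb1, the precursor of p50, gave 1014, 1053 and 990 in Klf4-null cells, against 910, 699 and 987 in wild type (log2 change 0.25, SE 0.11, adjusted p = 0.0963). Its lowest Klf4-null array was just above its highest wild-type array. Its other probe gave 0.17 (adjusted p = 0.21). Rel, the lymphoid c-Rel subunit, was close to the floor in both groups, with means of 66.5 ± 0.76 and 68.6 ± 5.57 (SD, n = 3 each) in Klf4-null and wild-type cells (adjusted p = 0.749 by limma).

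The classical inhibitors, which bind Rel dimers and are destroyed on signalling, rose together. Nfkbie (I-kappa-B epsilon) read 255, 216 and 239 in Klf4-null cells, against 85.4, 83.0 and 82.5 in wild type. Nfkbia (I-kappa-B alpha), the fast feedback inhibitor, read 183, 203 and 187 in Klf4-null cells, against 101, 113 and 96.04 in wild type. Nfkbib (I-kappa-B beta) read 106, 108 and 102 in Klf4-null cells, against 56.5, 55.1 and 49.5 in wild type, where it was above the floor on 2 of 3 arrays. None of these overlapped between the groups. The rises were 2.82-fold for Nfkbie (log2 change 1.498, SE 0.08, adjusted p = 4.0e-09), 1.85-fold for Nfkbia (0.89, SE 0.09, adjusted p = 1.6e-06) and 1.96-fold for Nfkbib (0.97, SE 0.08, adjusted p = 3.1e-07). A dimmer probe of Nfkbie, with means of 54.7 and 51.5 in Klf4-null and wild-type cells, did not pass (log2 change 0.10, adjusted p = 0.485). The nuclear members of the family, which modulate transcription on DNA, did not pass. Nfkbiz had means of 255 ± 20.3 and 269 ± 23.5 in Klf4-null and wild-type cells (log2 change -0.07, adjusted p = 0.587), and Bcl3 had 60.8 ± 4.94 and 64.3 ± 6.55 (-0.08, adjusted p = 0.577).

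**Figure D2:**
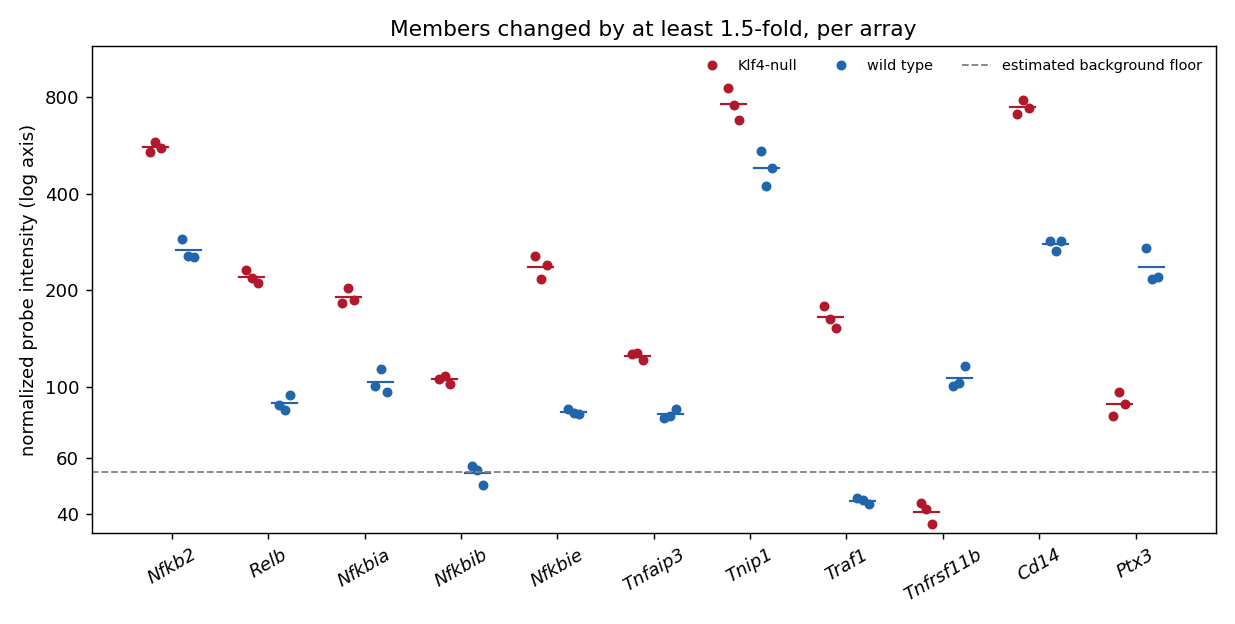
Normalized probe intensity (y axis, log scale) of the 11 members changed by at least 1.5-fold, with a point for each of the 3 Klf4-null (left, red) and 3 wild-type (right, blue) arrays, a bar for the mean of the group, and the background floor as a dashed line. In each gene the 2 sets of points are apart, with Klf4-null above wild type in 9 genes and below it for Tnfrsf11b and Ptx3.

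The IKK complex, which phosphorylates the inhibitors, did not pass the test on its representing probes. Its kinase subunits Ikbkb and Chuk gave log2 fold changes of -0.24 (SE 0.09, adjusted p = 0.065) and 0.26 (SE 0.12, adjusted p = 0.112), and the IKK-related kinase Ikbke gave -0.07 (SE 0.11, adjusted p = 0.69). The regulatory subunit Ikbkg (NEMO) gave -0.13 (SE 0.08, adjusted p = 0.253) on its brightest probe. Of these 4 genes, 0 were called on the representing probe by limma, and 1 had an unadjusted p under 0.05 (Ikbkb, 0.0265). A dimmer Ikbkg probe, ILMN_2630423, was lower at 111, 117 and 113 in Klf4-null cells, against 143, 132 and 162 in wild type (log2 change -0.36, SE 0.09, adjusted p = 0.00475).

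Among adaptors and feedback regulators, 6 of 9 tested genes rose and 0 fell, where 19.3% and 20.6% of all genes were higher and lower. Traf1, an adaptor of TNF receptors that is itself a well known NF-kB target, read 179, 162 and 152 in Klf4-null cells, against 44.9, 44.4 and 43.0 in wild type, where it was above the floor on no array. It rose at least 3.03-fold (log2 change 1.89, SE 0.08, adjusted p = 2.9e-10 by limma), the highest log2 change of the members tested, and its dimmer probe was also called, at least 1.18-fold higher (0.30, adjusted p = 0.00724). In such lower bounds, each array of the dim group enters at its floor, or at its own signal where that is greater. Tnip1, which works with the deubiquitinase A20 to restrain the pathway, read 853, 755 and 680 in Klf4-null cells, against 541, 422 and 481 in wild type. Tnfaip3, which encodes A20, read 126, 127 and 121 in Klf4-null cells, against 79.8, 81.1 and 85.2 in wild type. Both sets of arrays were apart, with rises of 1.59-fold for Tnip1 (log2 change 0.67, SE 0.11, adjusted p = 1.7e-04) and 1.52-fold for Tnfaip3 (0.61, SE 0.08, adjusted p = 1.8e-05). A dimmer Tnip1 probe, at 67.1 in Klf4-null and 63.02 in wild-type cells, did not pass (0.09, adjusted p = 0.605).

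The other adaptors moved by less. Traf2, which recruits ubiquitin ligases to TNF receptors, rose 1.31-fold (log2 change 0.39, SE 0.09, adjusted p = 0.00473), a call lost with unshrunken probe variances (adjusted p = 0.0731). Tnfaip2, a TNF-induced gene, rose 1.29-fold (0.37, SE 0.10, adjusted p = 0.0106), lost in the same setting (adjusted p = 0.124). Traf3, which restrains NIK, rose 1.26-fold (0.34, SE 0.11, adjusted p = 0.0307), but the call was lost without Klf4-null replicate 1 (adjusted p = 0.13), without Klf4-null replicate 3 (0.0567) or without wild-type replicate 2 (0.135). Traf6, the adaptor of IL-1 and Toll-like receptors, Ripk1, the kinase of the TNF receptor complex, and Birc2, a ubiquitin ligase, gave log2 fold changes of -0.09, -0.11 and 0.15 and did not pass (adjusted p = 0.544, 0.294 and 0.182). Traf6 was read by 4 tested probes, none called, with log2 fold changes of -0.19 to 0.09. Birc3, a ubiquitin ligase induced by NF-kB, was above the floor on 2 of 3 Klf4-null arrays and on no wild-type array, too few to be tested.

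Receptors and ligands of the TNF family were mixed. Tnfrsf11b (osteoprotegerin), the decoy receptor for the ligand RANKL, read 43.4, 41.5 and 37.3 in Klf4-null cells, which is under the floor on every array, against 100.4, 103 and 116 in wild type. It was at least 1.96-fold lower (log2 change -1.38, SE 0.09, adjusted p = 2.1e-08 by limma). Tnfsf11, which encodes RANKL itself, read 71.4, 82.9 and 73.8 in Klf4-null cells, against 67.7, 62.8 and 58.1 in wild type. The groups of Tnfsf11 were apart by a narrow margin, and its 1.21-fold rise (log2 change 0.27, SE 0.09, adjusted p = 0.0241) was lost without Klf4-null replicate 2 (adjusted p = 0.132) or without wild-type replicate 3 (0.0894). Tnfrsf1a, the main TNF receptor of fibroblasts, read 1525, 1743 and 1772 in Klf4-null cells, against 2216, 2317 and 2057 in wild type, and fell 1.31-fold (-0.39, SE 0.09, adjusted p = 0.00249), while its dimmer probe gave -0.01 (adjusted p = 0.94). Tnfrsf1b, the second TNF receptor, did not pass (0.21, adjusted p = 0.0972).

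The inducing cytokines lay at background. Tnf, Il1a and Il1b, the leading activators of the pathway, and Csf2, a colony stimulating factor of granulocytes and macrophages, were above the floor on none of the 6 arrays. Csf3, the granulocyte factor, was above it on 1 Klf4-null array. Their 7 probes had intensities of 35.2 to 61.8 over both groups. Nor was the IL-1 receptor antagonist Il1rn above the floor on any array. A probe at background gives an upper bound on a level and does not show that a transcript is absent.

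Of the IL-1 receptors, Il1rl1 (ST2), the receptor of the alarmin IL-33, which is made in soluble and membrane forms, had 1 very bright probe. It read 25633, 26726 and 23402 in Klf4-null cells, against 19507, 18476 and 20619 in wild type, and rose 1.29-fold (log2 change 0.37, SE 0.08, adjusted p = 0.00265). The brightest values on the arrays were 28982 to 30010, so this probe lay near the top of the scale. Its other tested probes gave -0.04 (adjusted p = 0.76) and -0.20 (adjusted p = 0.0674), and which form each probe reads was not given in the sources used here. The signalling receptor Il1r1 and the ligand Il33 did not pass, with log2 fold changes of -0.09 (adjusted p = 0.453) and 0.08 (adjusted p = 0.527). Csf1, the macrophage growth factor, averaged 1574 ± 182 in Klf4-null and 1304 ± 158 in wild-type cells, with overlapping arrays (0.27, SE 0.11, adjusted p = 0.0566).

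The Toll-like receptor system changed in parts. Cd14, which hands lipopolysaccharide to Tlr4, read 710, 783 and 739 in Klf4-null cells, against 284, 264 and 285 in wild type. Tlr2, the receptor of bacterial lipoproteins, read 459, 441 and 413 in Klf4-null cells, against 303, 275 and 315 in wild type. Both were higher on every Klf4-null array, Cd14 by 2.68-fold (log2 change 1.42, SE 0.08, adjusted p = 4.1e-09) and Tlr2 by 1.47-fold (0.56, SE 0.08, adjusted p = 1.0e-04). Myd88, the adaptor that most Toll-like and IL-1 receptors share, went the other way, at 144, 177 and 172 in Klf4-null cells, against 257, 256 and 219 in wild type. It fell 1.49-fold (-0.57, SE 0.10, adjusted p = 3.3e-04) with no overlap of arrays.

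Tlr4 itself gave -0.19 (SE 0.08, adjusted p = 0.077) on its brightest probe and -0.17 (adjusted p = 0.14) on another. Irak1, the kinase that Myd88 recruits, rose 1.42-fold on its brightest probe (log2 change 0.50, SE 0.10, adjusted p = 0.0015, or 0.0662 with unshrunken probe variances), whereas its other tested probes gave 0.05 (adjusted p = 0.757) and -0.14 (adjusted p = 0.432). Tlr3, the receptor of double-stranded RNA, and the lipopolysaccharide-binding protein Lbp were above the floor on no array. Cd14 and Tlr2 are also abundant in macrophages. Of 12 macrophage and leukocyte markers, 8 were above the floor on no array, among them Ptprc, Adgre1, Itgam, Lyz2 and Tyrobp. Of the 2 that were tested, Coro1a was lower in Klf4-null cells (log2 change -0.33, adjusted p = 0.00391) and Cd68 did not pass. Their summed intensity, mostly that of Cd68, was 311 to 329 in Klf4-null and 300 to 326 in wild-type cells. Endothelial markers summed to 348 to 362 and 353 to 371 in Klf4-null and wild-type cells (5 of 8 tested), where Cdh5 was lower in Klf4-null cells (-0.27, adjusted p = 0.0159). Epithelial markers summed to 143 to 155 and 244 to 269 (3 of 8 tested), where Krt14 was the only gene called. Krt14 was above the floor on no Klf4-null array and at least 2.63-fold lower in Klf4-null cells (log2 change -1.79, adjusted p = 1.9e-09). The part of these markers in the members' values was not tested.

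Of the acute phase and effector products, Ptx3, which fibroblasts secrete after TNF or IL-1, was the only gene called. It read 81.02, 96.6 and 88.1 in Klf4-null cells, against 271, 217 and 220.3 in wild type, with no overlap. It fell 2.66-fold (log2 change -1.41, SE 0.10, adjusted p = 6.7e-08). Saa3, an acute phase apolipoprotein, was close to the floor with 67.3 ± 6.07 in Klf4-null and 67.2 ± 4.88 in wild-type cells (SD, n = 3 each, adjusted p = 0.992 by limma). Lcn2, an iron-binding lipocalin, and Nos2, the inducible nitric oxide synthase, were above the floor on no array. Both are strongly induced by NF-kB in other settings.

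Probes of the same gene did not always move alike. Of 12 members with at least 2 tested probes, 6 had probes with the same call, and 6 had a called probe beside a probe that did not pass (Nfkbie, Tnip1, Irak1, Il1rl1, Tnfrsf1a and Ikbkg). In 0 of them were probes called in opposite directions. Over all 80 member probes, 18 were higher, 5 lower, 31 did not pass and 26 were not tested, where 19.0% and 19.9% of all tested probes were higher and lower. A further probe each of Irak1 and Birc2, deposited under an older name and outside the 80, was not tested or did not pass (adjusted p = 0.215 for the Birc2 probe).

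The promoters of the rising feedback genes are shown for the NF-kB recognition letters that some of them carry. RefSeq windows on GRCm38.p6, from 250 bases before to 50 after a start site, were matched by symbol for 39 of the 49 members. They were searched on both strands for a form of the kappa-B consensus, 10 letters long, that reads GGG, any 3 bases and then TTCC (GGAA, any 3 bases and then CCC from the other strand). Relb and Cd14, which rose, and Tnfrsf11b, which fell, had no matched window and were not searched. Below are the 250 bases before the start site of 4 members that rose and hold matches, of Traf1, which rose most, and of Ptx3, which fell and has no match in its window, 5′ to 3′ on the strand of the gene with matches in capitals.
Nfkb2, chr19:46304487-46304736, plus strand: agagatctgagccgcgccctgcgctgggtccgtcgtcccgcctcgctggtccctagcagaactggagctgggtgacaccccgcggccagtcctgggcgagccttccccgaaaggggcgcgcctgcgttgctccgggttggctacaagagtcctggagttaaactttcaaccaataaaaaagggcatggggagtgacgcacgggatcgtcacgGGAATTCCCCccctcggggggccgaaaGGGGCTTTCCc
Nfkbia, chr12:55492648-55492897, minus strand: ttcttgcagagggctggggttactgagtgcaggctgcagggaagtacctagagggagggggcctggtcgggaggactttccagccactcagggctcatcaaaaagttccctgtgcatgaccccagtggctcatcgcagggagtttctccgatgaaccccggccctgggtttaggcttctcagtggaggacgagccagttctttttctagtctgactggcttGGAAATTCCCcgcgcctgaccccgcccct
Nfkbie, chr17:45555450-45555699, plus strand: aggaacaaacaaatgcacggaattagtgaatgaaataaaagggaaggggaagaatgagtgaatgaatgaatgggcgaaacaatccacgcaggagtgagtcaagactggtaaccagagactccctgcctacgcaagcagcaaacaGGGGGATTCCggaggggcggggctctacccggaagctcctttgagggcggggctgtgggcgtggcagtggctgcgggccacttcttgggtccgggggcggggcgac
Tnip1, chr11:54962941-54963190, minus strand: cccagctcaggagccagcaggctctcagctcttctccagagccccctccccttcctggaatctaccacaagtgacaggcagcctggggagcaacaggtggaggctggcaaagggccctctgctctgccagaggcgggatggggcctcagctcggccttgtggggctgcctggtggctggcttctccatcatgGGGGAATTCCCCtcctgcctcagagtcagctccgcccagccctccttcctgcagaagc
Traf1, chr2:34961773-34962022, minus strand: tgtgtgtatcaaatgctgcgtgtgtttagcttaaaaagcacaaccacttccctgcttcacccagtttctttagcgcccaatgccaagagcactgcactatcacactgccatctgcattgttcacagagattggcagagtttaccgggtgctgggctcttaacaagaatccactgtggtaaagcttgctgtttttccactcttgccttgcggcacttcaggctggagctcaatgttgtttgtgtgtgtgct
Ptx3, chr3:66219637-66219886, plus strand: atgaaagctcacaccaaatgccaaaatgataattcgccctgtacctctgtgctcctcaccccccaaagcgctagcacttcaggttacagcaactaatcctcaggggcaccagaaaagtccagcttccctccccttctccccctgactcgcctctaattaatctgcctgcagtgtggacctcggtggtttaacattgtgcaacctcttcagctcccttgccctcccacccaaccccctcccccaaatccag

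The first Nfkb2 window printed holds GGAATTCCCC at 38 bases and GGGGCTTTCC at 11 bases before the start site. Nfkbia holds GGAAATTCCC at 29 bases and Nfkbie GGGGGATTCC at 106 bases before it. In Tnip1 the letters GGGGAATTCC and GGAATTCCCC overlap, since the site reads alike on both strands. Traf1 holds no match in its window. Over the members, 14 of 39 genes had a match in at least 1 window, comprising 8 of 15 that rose, 0 of 3 that fell, 4 of 13 that did not pass and 2 of 8 that could not be tested. The share was 6.31% over 27025 genes with a window. Members were chosen as NF-kB pathway genes, many of them known targets, so a larger share among them is no test of these arrays. Windows of a gene with several start sites can overlap, so a match can appear in more than 1 of them. A match is a string of letters and not a measured binding site, and the table is silent on sites outside these windows.

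**Figure D3:**
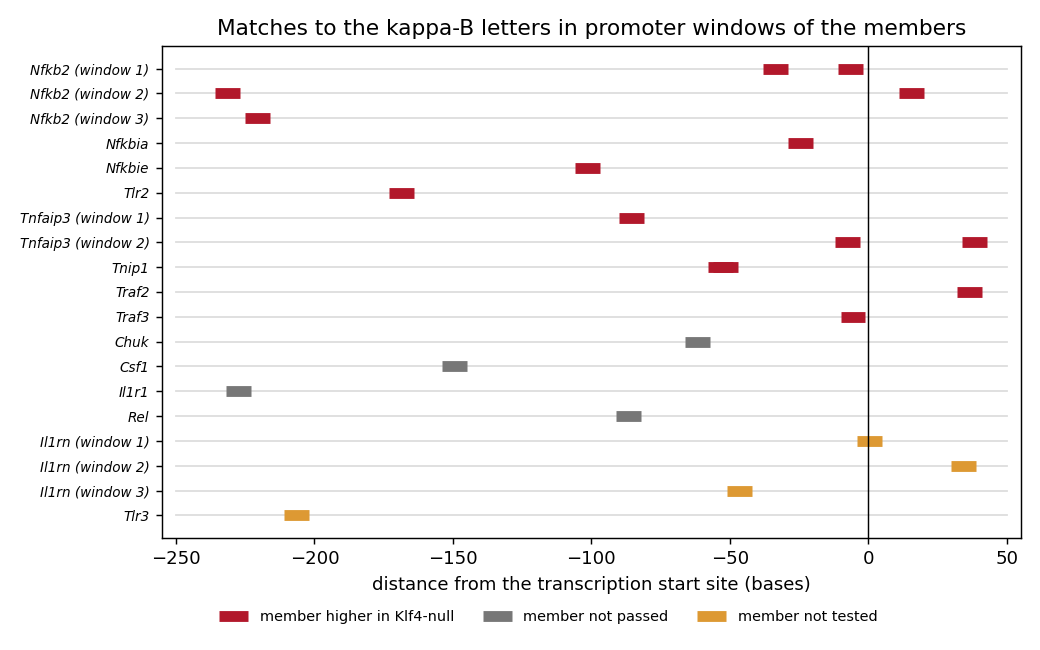
Position of each match to the kappa-B letters (coloured block, 10 bases long) along the promoter windows of the 14 members that hold one, with distance from the start site on the x axis and a grey line for each window. Red marks members higher in Klf4-null cells, grey those that did not pass and orange those not tested. Among the members that rose, Nfkb2, Nfkbia, Tnfaip3, Tnip1 and Traf3 have a match in the 58 bases before a start site. Il1rn, which was not tested, also has matches there.

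Of 50 other genes of the pathway, a list also drawn up with earlier results of these arrays known, 47 had a probe and 40 were tested. In Klf4-null cells 9 rose and 9 fell (22.5% each, against 19.3% and 20.6% of all genes). Their median log2 fold change was -0.01. Some genes that did not pass on the brightest probe were called on dimmer probes. These were Cyld (log2 changes 0.48 and 0.42), Tab1 (0.35) and Traf4 (0.27), which were higher, and Fadd (-0.32), which was lower. Card10, a scaffold that links receptors to IKK in non-immune cells, read 536, 477 and 471 in Klf4-null cells, against 48.5, 44.5 and 52.04 in wild type, all of them under the floor. It rose at least 9.13-fold (log2 change 3.36, SE 0.09, adjusted p = 1.5e-12), while a second probe was under the floor on every array. Map3k14 (NIK), the kinase of the alternative branch, read 567, 521 and 498 in Klf4-null cells, against 264, 231 and 270.2 in wild type. It rose 2.08-fold (1.05, SE 0.09, adjusted p = 3.2e-07), and a dimmer probe did not pass (0.06, adjusted p = 0.61). Zfp36, which promotes decay of cytokine mRNAs, rose 1.62-fold, and Btrc, the ubiquitin ligase subunit that recognises phosphorylated inhibitors, rose 1.57-fold.

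Among the genes of that list that fell, Il18, an IL-1 family cytokine, read 59.1, 62.6 and 53.2 in Klf4-null cells, against 109.7, 127 and 93.98 in wild type. It fell 1.88-fold (log2 change -0.91, SE 0.11, adjusted p = 1.1e-05). Commd1, which promotes the turnover of Rela, fell 1.67-fold, and its other probe also fell (-0.80). Ly96 (MD-2), the lipopolysaccharide-binding partner of Tlr4, read 174, 187 and 218 in Klf4-null cells, against 294, 359 and 298 in wild type, and fell 1.64-fold (-0.72, SE 0.10, adjusted p = 7.7e-05). Within the lipopolysaccharide receptor complex, Cd14 was thus higher, Ly96 lower and Tlr4 not called.

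Of 40 textbook NF-kB targets outside the members, chemokines included, 39 had a probe and 32 were tested. In Klf4-null cells 16 rose, 5 fell and 11 did not pass (50% higher and 15.6% lower, against 19.3% and 20.6% of all genes), with a median log2 fold change of 0.21. Results for several of these genes were known when the list was drawn up. Ccnd1 was counted as not passed on its brightest probe (log2 change -0.03, adjusted p = 0.79 by limma). Among its dimmer probes, ILMN_1219723 fell 3.10-fold, ILMN_2669793 2.73-fold and ILMN_1225673 1.52-fold (adjusted p = 1.4e-08, 2.1e-07 and 1.8e-04 by limma). Its probe ILMN_1257949 did not pass (0.09, adjusted p = 0.536). The matrix protease Mmp3 rose at least 26.8-fold on its brightest probe and the chemokine Ccl5 at least 10.6-fold. Neither probe was above the floor on any wild-type array. A dimmer Mmp3 probe, above the floor on 1 wild-type array, rose 10.3-fold. Complement C3 rose 8.78-fold and the chemokine Cxcl1 8.48-fold. Downward on representing probes, the metallothionein Mt2 fell 1.84-fold, and the cytokine Il15, above the floor on no Klf4-null array, was at least 1.59-fold lower. The mitochondrial superoxide dismutase Sod2, a frequent NF-kB target, fell 1.34-fold (log2 change -0.42, SE 0.09, adjusted p = 0.00136 by limma). Sod2 read 2102, 2123 and 2228 in Klf4-null cells, against 2690, 3224 and 2762 in wild type, with no overlap.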

How the data were processed

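Total RNA was extracted with Trizol and biotinylated cRNA was hybridised to Illumina arrays, per the labels' protocols. The authors' deposited value table holds 1 linear intensity per probe and sample, already normalized between arrays (medians 51.7 to 51.8). Its normalization method is not given in the sources used here. Gene symbols came from a further table, of which 12 value columns bear names that fit no sample label and were not used. Log2 intensities of all 6 arrays were fitted with limma 3.58.1 (R 4.3.3) on genotype alone (2-sided tests, p-values adjusted over all tested probes by Benjamini-Hochberg). The floor of each array was the mode of its log2 values plus the 95th percentile of a normal with the mirrored spread below the mode. Symbols outside the members were updated through RefSeq (GRCm38.p6): 25438 probes had a current symbol, 8745 a unique synonym and 12438 kept theirs. Only the limma fit was tried on simulated data, drawn from normal distributions with fewer changed probes than were called here. The floor, the filter, the choice of probe and the motif search were not tested in that way.

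Members, gene lists and floor were chosen with earlier results of these data known. Per-array values are given for members with a tested probe called and changed by at least 1.5-fold. They are also given for other members where a statement turns on them, chosen after their values were seen. From each of the other 2 lists the 4 largest rises and 3 largest falls on representing probes are named. Ccnd1 was added because its probes disagree. Alternatives covered the filter, scaling, background, variance, threshold, probe choice, replicate block and leaving out each sample. The number of arrays limits the precision.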

Additional observations from a re-analysis of the deposited data

How the results depend on the processing

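The counts of members called (17 higher, 4 lower, 23 probes) stayed within 1.5 times under each alternative except the test against 1.5-fold, which called 7 members higher, 2 lower, 9 probes and 2 of the other pathway genes, where 18 were called without it and 9.06% of all genes were called with it. Against 1.5-fold, Tnfaip3 and Tnip1 were among the calls lost. The median log2 fold change of tested members, 0.257, moved to 0.075 with no filter on dim probes, 0.143 with the mean of all tested probes of a gene and 0.233 after normexp correction with an offset of 50. Leaving out 1 sample at a time gave medians of 0.156 to 0.293, 16 to 18 members higher and 4 to 5 lower. With the mean of probes, Irak1 (0.137, adjusted p = 0.32 by limma) and Il1rl1 were no longer called, Ikbkg was called lower, and Klf4 turned to -0.367, since its probes disagree. With unshrunken probe variances, 12 members were higher and 4 lower (29.1% of all genes called), and Traf2, Tnfaip2, Traf3, Tnfsf11 and Irak1 were not called. With no filter, Traf3 was not called (adjusted p = 0.0533). The fit with the replicate block gave 17 members higher and 5 lower (38.0% of all genes called). Same-numbered samples did not deviate together (correlations -0.016, 0.053 and -0.225), while differently numbered ones gave -0.259 to 0.273. With 3 arrays per group, these values cannot decide whether the numbers pair the samples. Signal near the floor limits the dim probes, whose folds are understated if the intensities still hold background.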
